A study of Mus musculus with 2 samples.

Results

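This account covers 9 chemokine receptor genes, *Ccr1*, *Ccr2*, *Ccr6*, *Ccr7*, *Cxcr2*, *Cxcr3*, *Cxcr4*, *Cxcr6* and *Cx3cr1*, in single-cell RNA sequencing of the mouse abdominal aorta. They were taken by symbol from the 33696 genes of the count matrices, and all 9 were found, once each, in both libraries. The suprarenal aorta of male C57BL/6J mice aged 5 months was taken on day 28. One library came from mice infused with saline (Control), the other from mice infused with angiotensin II at 1500 ng/kg/min and given 0.9% NaCl and 0.2% KCl to drink (AngII+HS). Each library was made from the pooled tissue of 5 mice by the design text, while the extraction text speaks of 1 control mouse and 2 treated mice, so the spread between mice cannot be read and each condition is 1 library.

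Chemokine receptors are G protein-coupled receptors through which leukocytes sense chemokines and move toward their source or leave the blood. Receptors named CCR, CXCR and CX3CR bind ligands with different spacing of the first cysteines, and several receptors share ligands. *Cxcr2* and *Ccr1* are known from neutrophil and myeloid recruitment, *Ccr2* from the exit of classical monocytes from bone marrow, *Cx3cr1* from patrolling monocytes and tissue macrophages, *Ccr7* from homing to lymph nodes, *Ccr6* from B cells, regulatory and interleukin 17-producing T cells, *Cxcr3* and *Cxcr6* from effector and tissue-resident lymphocytes, and *Cxcr4* from retention in bone marrow.

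The feature the receptors share is visible in their coding sequence. At the inner end of the third membrane helix lies a short motif (aspartate, arginine, tyrosine) that takes part in coupling to the G protein, and 1 stretch of 45 bases around its codons is shown for 6 of the genes that lead the results below. The sequences are those of GENCODE transcripts on GRCm39, read 5′ to 3′ on the coding strand, and capitals mark the 3 codons of the motif.
Cxcr2 (chr1:74197913-74197957, plus strand): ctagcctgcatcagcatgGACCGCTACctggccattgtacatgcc
Ccr2 (chr9:123906151-123906195, plus strand): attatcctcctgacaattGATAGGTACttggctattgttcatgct
Cx3cr1 (chr9:119880996-119881040, minus strand): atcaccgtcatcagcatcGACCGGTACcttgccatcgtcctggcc
Ccr7 (chr11:99036438-99036482, minus strand): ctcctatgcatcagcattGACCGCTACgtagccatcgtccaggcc
Ccr6 (chr17:8475178-8475222, plus strand): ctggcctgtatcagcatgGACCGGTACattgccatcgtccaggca
Cxcr6 (chr9:123639385-123639429, plus strand): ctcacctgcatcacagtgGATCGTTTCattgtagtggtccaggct
*Cxcr6* was the 1 member of 9 whose last motif codon (TTC) is a phenylalanine codon. Over the aligned coding sequences, members were 54.2% (*Ccr2* and *Cxcr3*) to 65.3% (*Ccr1* and *Ccr2*) identical. By the annotation, 4 of the 9 genes lie on chromosome 9, with *Cxcr6* (ENSMUSG00000048521, 123635534 to 123640825), *Ccr1* (ENSMUSG00000025804, 123762161 to 123768734) and *Ccr2* (ENSMUSG00000049103, 123901982 to 123913594) near each other and *Cx3cr1* (ENSMUSG00000052336, 119877749 to 119898945) farther away. *Cxcr6* lies inside *Fyco1* on the opposite strand, and *Ccr6*, *Ccr7* and *Cx3cr1* each overlap a lncRNA gene on the opposite strand. Whether reads were counted by strand is not given in the sources used here.

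In both libraries, UMIs (unique molecular identifiers, so counts of captured molecules) were summed per cell type and given as CPM, the usual share of all UMIs of those cells scaled to a fixed total. Intervals are 95% exact Poisson intervals, or exact conditional intervals for a ratio, and cover counting error only. No test between conditions was possible with 1 library each. After filtering, 10269 Control and 19734 AngII+HS cells remained from libraries of 86618995 and 117146856 UMIs. Their barcode lists had 67 barcodes in common. The list of 24804 barcodes is filed with Control and that of 11448 with AngII+HS, each matching the cell number of the other library's matrix. The name of each list also gives the other library's condition, whereas the matrices are named as they are filed, and the matrices were used as filed. Cells were clustered without the 9 receptors, so these genes took no part in defining the cell types. A name such as neutrophil stands for a cluster that resembles neutrophils by a fixed marker list. The AngII+HS library held 4616 neutrophils, 1430 monocytes, 2717 macrophages, 607 dendritic cells (DCs), 938 T cells, 135 natural killer (NK) cells, 996 B cells and 170 plasma cells. In the Control library at least 50 cells were found for 6 leukocyte types, with 99 neutrophils, 52 monocytes, 370 macrophages, 57 DCs, 107 T cells and 99 B cells.

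Among the 8 leukocyte types compared in the AngII+HS aorta, *Cxcr2* and *Ccr1* were highest in neutrophils and *Cxcr3* and *Cxcr6* in T cells. *Ccr2* was highest in monocytes and *Cx3cr1* in macrophages, but neither by 2-fold. By subtype, *Ccr2* was highest in gamma-delta T cells (412 CPM), above classical monocytes (318 CPM), an order that did not hold at every setting. Among types, *Ccr7* was highest in DCs and B cells, and *Ccr6* in B cells and, by subtype, regulatory T cells. *Cxcr4* was found in all leukocyte types. Group 2 innate lymphoid cells (ILC2s) were too few to be compared. At 0.217% of the AngII+HS cells counted they held 15.0% of the *Cxcr6* UMIs, where T cells, at 4.84%, held 73.5%. A total of 5 members (*Ccr1*, *Ccr6*, *Cxcr2*, *Cxcr3* and *Cxcr6*) had a level at least 2-fold above that of the next of 8 leukocyte types, where 19.9% of all 11056 genes compared did so. Among 16 subtypes it was 4 members (*Ccr1*, *Ccr7*, *Cxcr2* and *Cxcr6*), against 18.4% of genes. Many places in the orders were not resolved. Of the 63 pairs of neighbouring types in the 9 orders, the interval of the ratio lay above equality in 25, and of 135 pairs of neighbouring subtypes in 29.

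**Figure D1:**
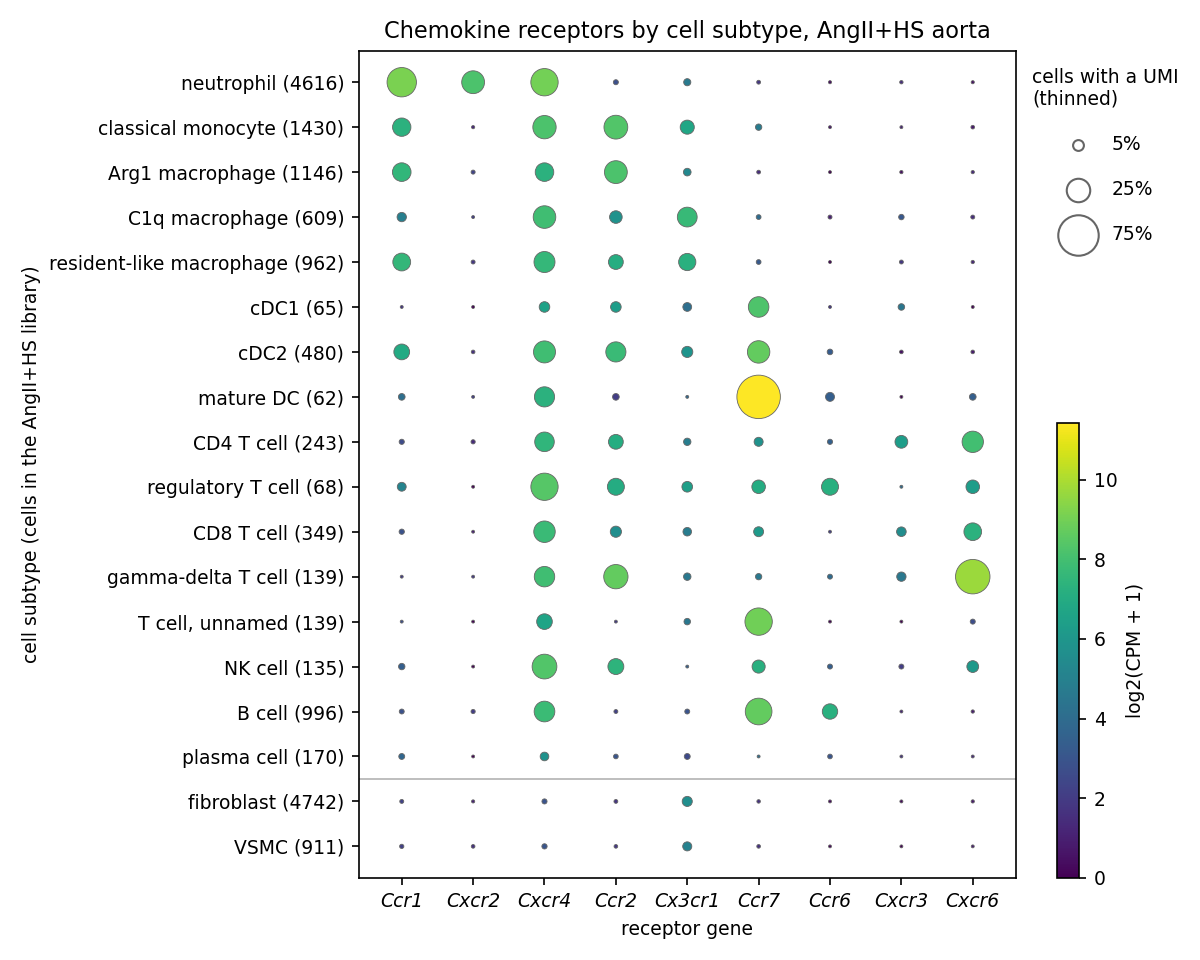
Levels of the 9 receptors (columns) in 16 leukocyte subtypes and 2 stromal types (rows, cell numbers in brackets) of the AngII+HS library. Colour is log2(CPM + 1) and circle area is the share of cells with a UMI after thinning to 1000 UMIs. Cells with fewer than 1000 UMIs are left out of that share, while the numbers in brackets count all cells. *Cxcr2* is near 0 outside neutrophils, *Ccr7* is highest in mature DCs at 2753 CPM, and *Cxcr4* is present in every leukocyte row.

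*Cxcr2*, the receptor for the neutrophil-attracting CXC chemokines, was found mainly in neutrophils. Its level in neutrophils was 296 CPM (282 to 309) in the AngII+HS library and 456 CPM (380 to 544) in the Control library. The next leukocyte type in the AngII+HS library, macrophages, was at 3.31 CPM (2.37 to 4.49), 89.3-fold lower (interval of the ratio 65.6 to 125). Neutrophils held 93.0% of the *Cxcr2* UMIs of the AngII+HS cells counted and 87.3% of those of the Control cells counted.

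*Ccr1*, a receptor for several inflammatory CC chemokines, was also highest in neutrophils, at 566 CPM (548 to 586) in AngII+HS and 423 CPM (349 to 508) in Control. Monocytes followed in AngII+HS at 157 CPM (147 to 167), then macrophages at 137 CPM (130 to 143) and DCs at 96.3 CPM (85.8 to 108). T cells were at 7.75 CPM (4.67 to 12.1) and B cells at 6.38 CPM (3.49 to 10.7), against 3.75 CPM (3.07 to 4.54) in fibroblasts, which are not known to use this receptor. The lead of neutrophils over monocytes was 3.62-fold (3.37 to 3.89) in CPM. Neutrophils carried less RNA, with a median of 1265 UMIs per cell against 4228 in monocytes, and per cell the difference was smaller, at 0.755 *Ccr1* UMIs per neutrophil and 0.692 per monocyte. Cells of at least 1000 UMIs (3774 of 4616 neutrophils and 1416 of 1430 monocytes) were also thinned to 1000 UMIs, and the rest were left out. Of these thinned cells, 39.4% of neutrophils and 15.1% of monocytes held a *Ccr1* UMI. Over all cells without thinning, the shares were 47.2% and 42.3%. Fibroblasts, at a median of 5114 UMIs, gave 0.327% thinned and 1.98% unthinned.

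*Cxcr4*, the receptor for CXCL12, was detected across leukocytes with a narrower range. In AngII+HS its level was 515 CPM (497 to 533) in neutrophils, 324 CPM (265 to 394) in NK cells, 287 CPM (274 to 300) in monocytes, 223 CPM (204 to 244) in B cells, 215 CPM (199 to 232) in DCs, 205 CPM (187 to 223) in T cells, 194 CPM (186 to 202) in macrophages and 55.9 CPM (45.5 to 67.9) in plasma cells. Neutrophils were 1.59-fold (1.30 to 1.95) above NK cells, and B cells, DCs, T cells and macrophages lay close together with neighbouring intervals that overlap. Counted per cell, the order turned, since neutrophils held 0.687 *Cxcr4* UMIs per cell, NK cells 0.756, macrophages 0.883, DCs 1.11 and monocytes 1.27. Among lymphocytes, regulatory T cells had the highest level at 345 CPM (269 to 436), from 70 UMIs. That place was not resolved, since the interval of their ratio to NK cells held equality (log2 -0.371 to 0.542).

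Neutrophils themselves formed several clusters in the AngII+HS library, over which *Ccr1* ranged 1.31-fold, *Cxcr4* 1.94-fold and *Cxcr2* 3.56-fold between the highest and the lowest cluster. The cluster led by *Stfa2l1* and *Retnlg* (2338 cells) had 611 CPM *Ccr1*, 320 CPM *Cxcr2* and 499 CPM *Cxcr4*. That led by *Bcl2a1d*, *Il23a* and *Tnf* (1939 cells) had 496, 230 and 516 CPM, in the same order, and that led by the interferon-induced gene *Ifit1* (252 cells) 652, 415 and 691 CPM. *Cxcr2* was 1.81-fold (1.5 to 2.17) and *Ccr1* 1.31-fold (1.14 to 1.51) higher in the *Ifit1*-led than in the *Bcl2a1d*-led cluster. A small cluster of 87 cells with a median of 972 UMIs, for which *Cxcr2* was itself among the 10 leading genes, reached 816 CPM *Cxcr2* from 71 UMIs.

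*Ccr2*, the receptor for CCL2, was highest among types in monocytes, at 318 CPM (305 to 333) in AngII+HS and 384 CPM (324 to 451) in Control. DCs and macrophages followed in AngII+HS at 177 CPM (162 to 192) and 174 CPM (167 to 181), with overlapping intervals, then NK cells at 165 CPM (124 to 217) and T cells at 120 CPM (107 to 134). B cells (3.64 CPM) and neutrophils (5.85 CPM) were near the 2.37 CPM of fibroblasts. Within T cells the level was concentrated in gamma-delta T cells, a cluster led by *Scart1*, *Blk* and *Il23r*, at 412 CPM (347 to 485), whereas the unnamed T cell cluster led by *Igfbp4* had 1 UMI (2.80 CPM). Gamma-delta T cells were 1.29-fold (1.08 to 1.53) above classical monocytes at the main settings, log2 0.37, near the top of the range over the alternatives (-0.46 to 0.38). The order turned with TMM factors (log2 -0.19) and with UMIs per cell (log2 -0.46). It was near equality at others, with log2 0.016 with no doublets removed, 0.021 after merging without integration and 0.013 at type resolution 0.4. The 42 group 2 innate lymphoid cells (ILC2s), too few for the comparisons, had 478 CPM (357 to 627).

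*Cx3cr1*, the receptor for the membrane-bound chemokine CX3CL1, was highest among leukocytes in macrophages, at 124 CPM (118 to 131) in AngII+HS and 97.0 CPM (82.8 to 113) in Control, followed by monocytes at 108 CPM (100 to 117) and 57.4 CPM (36 to 87). By subtype in AngII+HS, C1q macrophages (so called for their complement genes) had 209 CPM (195 to 224), resident-like macrophages 153 CPM (140 to 166), classical monocytes 108 CPM (100 to 117), regulatory T cells 83.8 CPM from 17 UMIs, cDC2s (type 2 conventional DCs) 59.4 CPM (50.1 to 70.0) and Arg1 macrophages 39.1 CPM (33.8 to 45). The lead of macrophages over monocytes, log2 0.20, ranged from 0.16 to 2.08 over the alternatives and passed 2-fold under 6 of them, and that of monocytes over DCs for *Ccr2*, log2 0.85, ranged from 0.62 to 1.4. NK cells and B cells were at 9.54 CPM (1.97 to 27.9) and 6.83 CPM (3.82 to 11.3).

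*Ccr2* and *Cx3cr1* followed different orders over the clusters of monocytes and macrophages, while mature DCs were low in both (3.25 and 13 CPM). Over all 16 subtypes their r was 0.513. The *Vcan*-led classical monocyte cluster (656 cells) had 445 CPM *Ccr2* and 44.5 CPM *Cx3cr1*, and the *Inhba*-led Arg1 macrophage cluster (771 cells) 319 and 28.4 CPM. At the other end, the *Gpnmb*-led C1q macrophage cluster (523 cells) had 46.4 CPM *Ccr2* and 211 CPM *Cx3cr1*. The *Ly6c2*-led cluster (774 cells), named classical monocyte although its marker score for classical monocytes (2.055) was almost equal to that for C1q macrophages (2.046), lay between them with 223 CPM *Ccr2* and 156 CPM *Cx3cr1*. It had 3.52-fold (2.89 to 4.32) more *Cx3cr1* than the *Vcan*-led cluster, and the *Vcan*-led cluster 1.99-fold (1.82 to 2.18) more *Ccr2*. *Ccr1* was lowest in 65 cDC1s (type 1 conventional DCs), with 1 UMI or 2.38 CPM, and 28.9 CPM (23.8 to 34.7) in C1q macrophages, against 183 CPM (171 to 195) in Arg1 and 191 CPM (177 to 207) in resident-like macrophages.

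**Figure D2:**
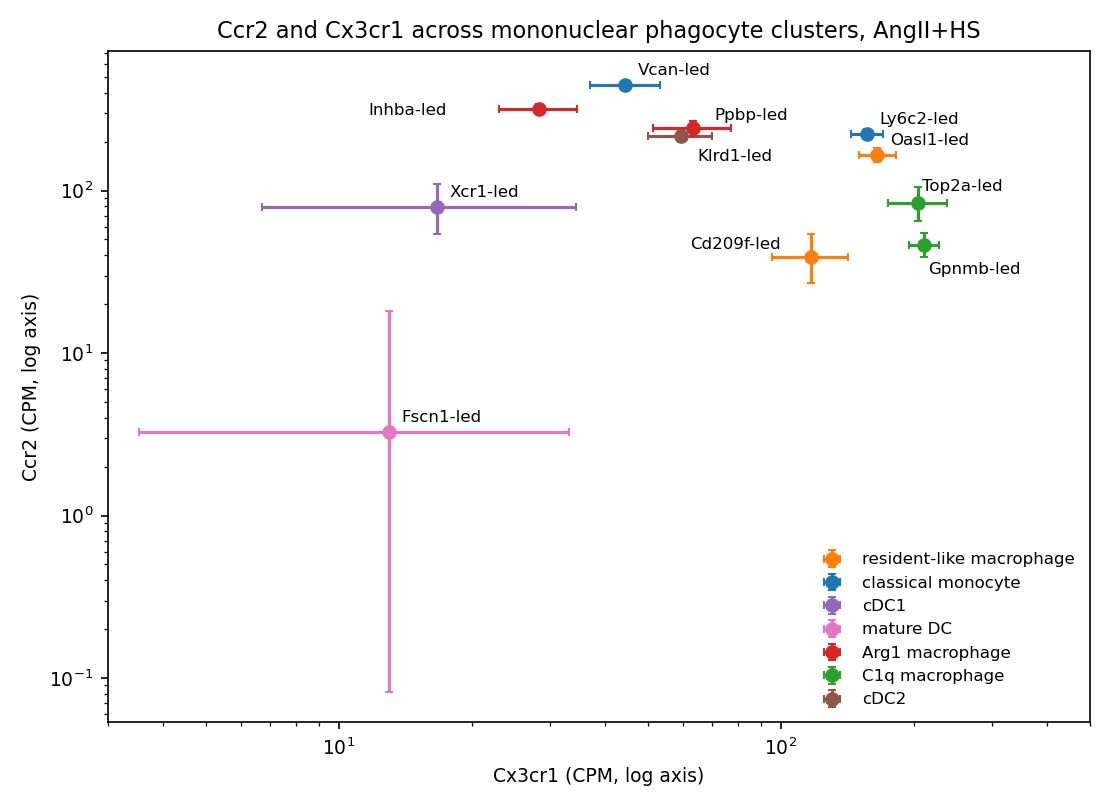
Level of *Cx3cr1* (horizontal) and *Ccr2* (vertical), both in CPM on log axes, in each cluster of monocytes, macrophages and DCs with at least 50 cells of the AngII+HS library, labelled by its first leading gene and coloured by subtype. Bars are 95% Poisson intervals, and the *Vcan*-led monocytes (445 CPM *Ccr2*) and *Gpnmb*-led macrophages (211 CPM *Cx3cr1*) are the highest for each, while mature DCs are lowest for both.

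*Ccr7*, which guides DCs and naive lymphocytes to lymph nodes, differed widely between subtypes. In AngII+HS, 62 mature DCs, a cluster led by *Fscn1* and *Ccl22*, reached 2753 CPM (2571 to 2945), and all 62 held at least 1 *Ccr7* UMI. Next were the unnamed *Igfbp4*-led T cells at 498 CPM (428 to 577), 5.52-fold lower (4.69 to 6.53), whose leading genes also include *Lef1*, a factor of naive T cells, and *Ccr7* itself. B cells had 406 CPM (380 to 434), cDC2s 404 CPM (379 to 430) and cDC1s 303 CPM (252 to 360). CD8 T cells had 71.4 CPM (55.4 to 90.5), CD4 T cells 55.6 CPM (38.2 to 78.0), classical monocytes 26.1 CPM (22.3 to 30.4) and Arg1 macrophages 1.79 CPM (0.817 to 3.39). Among monocytes, 158 of the 165 UMIs lay in the *Ly6c2*-led cluster. NK cells held 146 CPM (107 to 195), though in 12.6% of cells and from 46 UMIs.

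*Ccr6*, the receptor for CCL20, was at 151 CPM (135 to 168) in B cells of AngII+HS and 111 CPM (77.9 to 152) in B cells of Control. Among T cells it was found in regulatory T cells, at 148 CPM (99.8 to 211) from 30 UMIs, a ratio to B cells that cannot be told from 1 (B cells over regulatory T cells 1.02-fold, 0.701 to 1.53). Gamma-delta T cells followed at 14.5 CPM (4.70 to 33.8) and CD4 T cells at 10.1 CPM (3.71 to 22.0). B cells held 74.7% of the *Ccr6* UMIs of AngII+HS (331 of 443) and 92.5% of those of Control (37 of 40).

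*Cxcr3*, the receptor for interferon-induced chemokines, was the member with the fewest UMIs, 189 in AngII+HS and 14 in Control. T cells had 41.6 CPM (33.9 to 50.5) and 23.1 CPM (11.9 to 40.3). Within AngII+HS T cells, CD4 T cells had 79.1 CPM (58.1 to 105), 1.71-fold (1.11 to 2.65) above CD8 T cells at 46.2 CPM (33.6 to 62.0), and gamma-delta T cells had 23.2 CPM (10.0 to 45.7). Outside T cells, cDC1s had 21.5 CPM (9.81 to 40.7) from 9 UMIs and C1q macrophages 7.67 CPM (5.18 to 11) from 30 UMIs, while fibroblasts were at 0.212 CPM (0.0779 to 0.462).

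*Cxcr6*, the receptor for CXCL16, was at 245 CPM (226 to 266) in T cells of AngII+HS and 150 CPM (118 to 187) in T cells of Control. By subtype, gamma-delta T cells had 835 CPM (741 to 937), 3.35-fold (2.74 to 4.11) above CD4 T cells at 249 CPM (211 to 293), followed by CD8 T cells at 154 CPM (130 to 181), regulatory T cells at 78.9 CPM (45.1 to 128) and NK cells at 70.0 CPM (43.9 to 106). In 20 gamma-delta T cells of Control the level was 769 CPM. ILC2s, with 42 cells in AngII+HS and 16 in Control, held 123 and 66 of the *Cxcr6* UMIs, and their level in AngII+HS was 1131 CPM (940 to 1350). *Igfbp4*-led T cells had 2 UMIs (5.60 CPM), so that *Cxcr6* and *Ccr7* were highest in different T cell clusters.

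**Figure D3:**
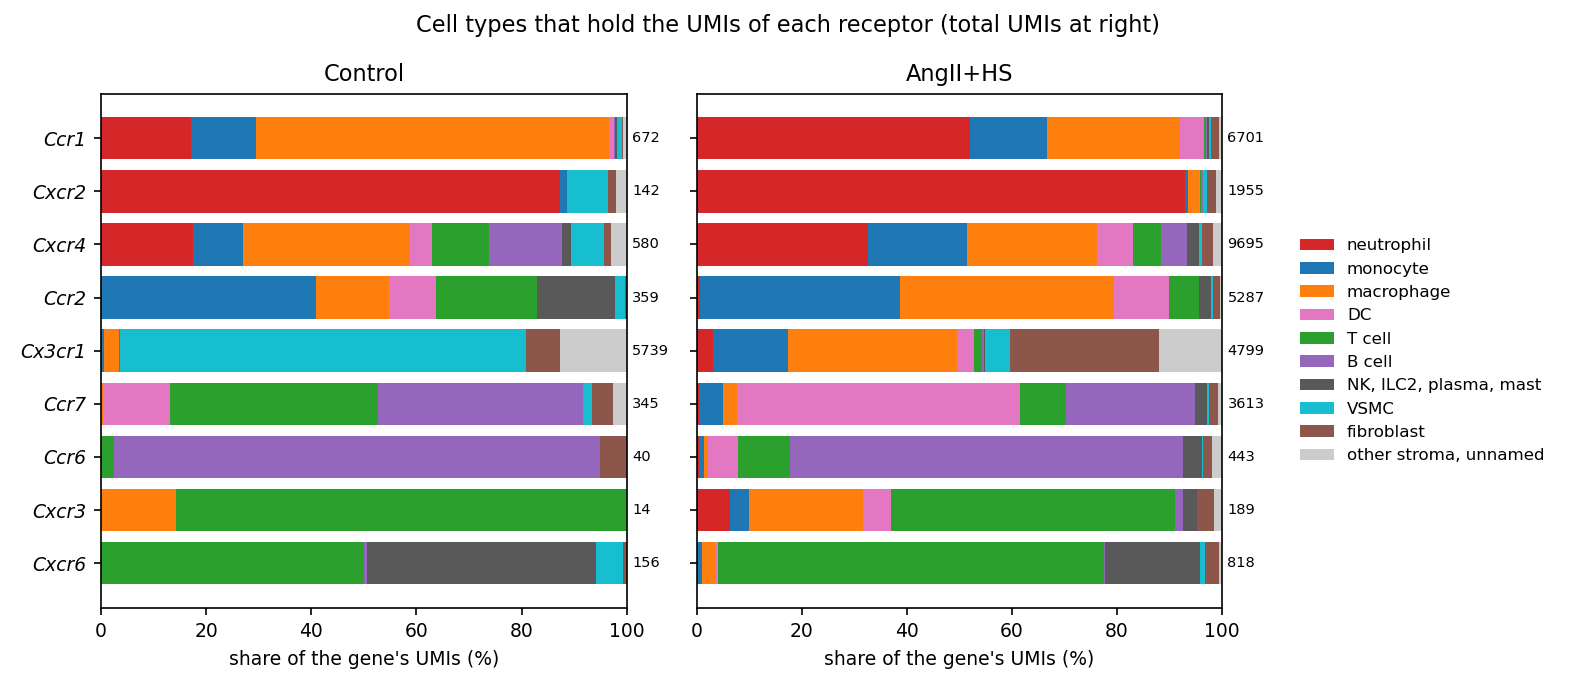
Share of each receptor's UMIs (horizontal, percent) held by each cell type in the Control (left) and AngII+HS (right) library, with the total number of UMIs beside each bar. Neutrophils hold 93.0% of the *Cxcr2* UMIs of AngII+HS, and VSMCs (vascular smooth muscle cells) hold 77.3% of the *Cx3cr1* UMIs of Control.

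Pairs of receptors were then counted in single AngII+HS cells with at least 1000 UMIs, each thinned to 1000 UMIs. Of 903 T cells, 35 held both *Ccr2* and *Cxcr6*, where the product of the single shares gives 16.9 (2.08 times as many), and 3 held both *Ccr7* and *Cxcr6* where it gives 14.3 (0.210 times). *Ccr1* and *Cx3cr1* were found together in 23 of 2664 macrophages (14.6 to 34.5, product 31.7, 0.725 times) and in 12 of 1416 monocytes (6.20 to 21.0, product 18.7, 0.640 times). Both intervals held the product, as did that of *Ccr7* and *Cxcr4* in T cells (9 cells, 4.12 to 17.1, product 13.9). Without thinning, *Ccr1* and *Cx3cr1* met in 166 of 2717 macrophages (142 to 193, product 241) and in 113 of 1430 monocytes (93.1 to 136, product 153). *Ccr1* and *Cxcr2* in neutrophils met in 365 of 3774 cells (product 350), and *Ccr6* and *Ccr7* in B cells in 33 of 957 cells (product 32.7), near the product. Of the 18 pairs counted, *Ccr2* with *Cxcr6* in T cells was the 1 at 1.5 times the product or more, with and without thinning. These are counts over cells of 1 library, with no test, and a pair of subtypes with different levels also moves them. At least 2 of the 9 receptors were found in 25.4% of neutrophils, 18% of DCs, 16.4% of monocytes, 13.2% of T cells, 11.4% of B cells and 9.57% of macrophages, against 0.153% of fibroblasts.

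Between the libraries, *Ccr2* in macrophages showed the largest difference among leukocyte types with at least 20 UMIs of the member in each library, at the main settings. Its level was 29.2 CPM (21.7 to 38.5, 50 UMIs) in Control and 174 CPM (167 to 181, 2155 UMIs) in AngII+HS, a log2 ratio of 2.57 (2.17 to 3.01). The Arg1 macrophages have 1146 cells in AngII+HS and none in Control. In resident-like macrophages *Ccr2* was at 26.5 CPM (18.9 to 36.1) in Control and 132 CPM (121 to 145) in AngII+HS, log2 2.32 (1.85 to 2.83). How far the makeup of the macrophages accounts for the difference was not tested. Most *Ccr2* UMIs of AngII+HS resident-like macrophages (421 of 456) lay in the *Oasl1*-led cluster. Its marker score was 2.542 for resident-like and 2.065 for C1q macrophages, and 0 of its 10 leading genes were resident-like markers. In this cluster, with 239 Control and 700 AngII+HS cells, *Ccr2* was 37.2 and 165 CPM, log2 2.15 (1.68 to 2.66). The *Cd209f*-led cluster, with 3 resident-like markers among its leading genes, had 0 UMIs in 96 Control cells against 35 UMIs (39.0 CPM) in 262 AngII+HS cells. The size of the difference depended on how the cells were divided, with log2 1.22 in macrophages at 0.5 times the resolution of the lineage clustering and 1.25 in resident-like macrophages when the libraries were merged without integration. *Cx3cr1* in resident-like macrophages was 73.5 CPM (60.5 to 88.5) and 153 CPM (140 to 166), log2 1.06 (0.76 to 1.36). Of 5 members tested in resident-like macrophages, 3 were at least 2-fold higher (*Ccr2*, *Ccr7* and *Cx3cr1*) and 0 lower, where 8.12% of genes were higher and 8.07% lower. The ratio of *Cx3cr1* was under 2-fold when the libraries were merged without integration (log2 0.49) and in the *Cd209f*-led cluster (log2 0.63). *Ccr1* lay the other way, at 263 CPM (240 to 289) in Control and 137 CPM (130 to 143) in AngII+HS macrophages, log2 -0.95 (-1.10 to -0.79), although in the *Cd209f*-led cluster alone it was 177 and 197 CPM.

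Of the 8 members tested in macrophages (at least 20 UMIs in both libraries together), 3 were at least 2-fold higher in AngII+HS (*Ccr2*, *Ccr7* and *Cxcr3*) and 0 lower, where 14.1% of all genes were higher and 16.6% lower. *Ccr7* there had 1 UMI in Control and 96 in AngII+HS (0.584 and 7.75 CPM), log2 3.73 (1.22 to 9.05). *Cxcr3* had 2 and 41 UMIs with an interval that held 0 (log2 1.5, -0.44 to 4.595), and in the *Oasl1*-led cluster, with 2 and 3 UMIs, its ratio pointed the other way (log2 -0.66, -3.78 to 2.92). Of 5 members tested in monocytes, 1 was higher, where 11.6% of genes were higher and 10.1% lower. It was *Ccr7*, with 0 UMIs in 52 Control cells and 165 UMIs (26.1 CPM) in AngII+HS. The ratio was 3.33-fold with 3 UMIs put in for Control, and its interval began at log2 1.42. The Control monocytes are mostly of the *Vcan*-led cluster (42 of 52), and 158 of the 165 *Ccr7* UMIs are of the *Ly6c2*-led one, so that different clusters are compared.

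*Ccr7* and *Ccr1* were higher in DCs of AngII+HS, which makes 2 of 6 members tested, where 13.1% of genes were higher and 14.7% lower. *Ccr7* had 217 CPM (157 to 291) in Control and 621 CPM (594 to 649) in AngII+HS, log2 1.52 (1.09 to 1.99). The mature DC cluster held 62 of 607 DCs in AngII+HS and 0 of 57 in Control. In cDC2s alone *Ccr7* was 281 CPM (203 to 378) and 404 CPM (379 to 430), log2 0.52 (0.08 to 1.0), with the Control UMIs from 15.7% of 51 cells. That ratio passed 2-fold with equal weight per cell (log2 1.94) and after thinning (log2 1.07). *Ccr1* in cDC2s was 45.7 CPM (18.4 to 94.2, 7 UMIs) and 123 CPM (109 to 138), log2 1.43 (0.37 to 2.75), the 1 of 6 members tested there that was higher, where 13.4% of genes were higher and 17.1% lower.

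In T cells *Ccr7* was lower in AngII+HS, at 263 CPM (221 to 311) in Control and 128 CPM (114 to 143), log2 -1.04 (-1.34 to -0.74). That was the 1 member of 7 tested that was lower by 2-fold, where 3.73% of genes were, and 2 were higher (*Ccr6* and *Cx3cr1*), where 11.2% of genes were. *Ccr6* had 1 UMI in Control and 44 in AngII+HS, log2 3.22 (0.67 to 8.56), and *Cx3cr1* had 4 and 74, log2 1.97 (0.56 to 3.89). The AngII+HS levels of *Cx3cr1* in T cells (30.2 CPM) and CD8 T cells (26.2 CPM) were below that of VSMCs (31.7 CPM), with overlapping intervals. The part of free RNA in them was not tested. Regulatory T cells, 1 cell in Control and 68 in AngII+HS, held 30 of the 44 *Ccr6* UMIs, so that this ratio compares different cells. T cell makeup differed, since 66 of 107 Control T cells were CD8 T cells, 49 of them in the *Tdrp*-led cluster, whose leading genes include *Lef1*, whereas in AngII+HS most CD8 T cells (264 of 349) were in a cluster led by *Gzmk*, a granzyme gene. The *Tdrp*-led cluster had a marker score for CD8 T cells of 1.236 and 0 CD8 markers among its 10 leading genes. The *Gzmk*-led cluster had a score of 2.866 and 4 such markers. Within CD8 T cells *Ccr7* was 311 CPM (256 to 373) and 71.4 CPM (55.4 to 90.5), and *Cxcr6* 30.2 CPM (15.1 to 54.1) and 154 CPM (130 to 181), log2 2.35 (1.47 to 3.38). In the *Tdrp*-led cluster, 49 Control and 68 AngII+HS cells, *Ccr7* was 440 and 176 CPM and *Cxcr6* 4.03 CPM (1 UMI) and 58.8 CPM (13 UMIs). Of 6 members tested in CD8 T cells, 3 were higher (*Cxcr3*, *Cxcr6* and *Cx3cr1*) and 1 lower (*Ccr7*), where 11.8% of genes were higher and 3.44% lower.

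No member was called 2-fold higher or lower in neutrophils (0 of 5 tested, where 17.3% of genes were higher and 10.4% lower). The same held in B cells (0 of 3, where 11.0% were higher and 4.24% lower). In neutrophils, log2 ratios were 0.42 (0.15 to 0.70) for *Ccr1*, 0.47 (0.18 to 0.77) for *Cxcr4* and -0.63 (-0.89 to -0.35) for *Cxcr2*. That of *Cx3cr1*, from 6 Control UMIs, was 0.15 with an interval that reached past 2-fold (-1.003 to 1.62). *Ccr2* had 0 UMIs in Control neutrophils and 36 in AngII+HS. Its call rests on 3 UMIs put in for Control, and its interval began at log2 -1.29 and had no upper end. All 99 Control neutrophils fell in a cluster of their own, led by *Ngp* and *Ly6g*, with no AngII+HS cell, so the library and the cluster cannot be told apart. *Cxcr4* was higher in AngII+HS in 5 of the 6 types, with intervals above 0 and ratios under 2-fold, although most intervals reached past 2-fold and the ratio in macrophages (log2 1.09 to 1.16 under 3 alternatives) and DCs (2.21 after thinning) did so too. The log2 ratios were 0.97 in monocytes, 0.87 in DCs, 0.85 in macrophages, 0.76 in T cells and 0.47 in neutrophils, and -0.12 (-0.46 to 0.24) in B cells. In B cells *Ccr7* was 401 and 406 CPM, log2 0.02 (-0.24 to 0.29).

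**Figure D4:**
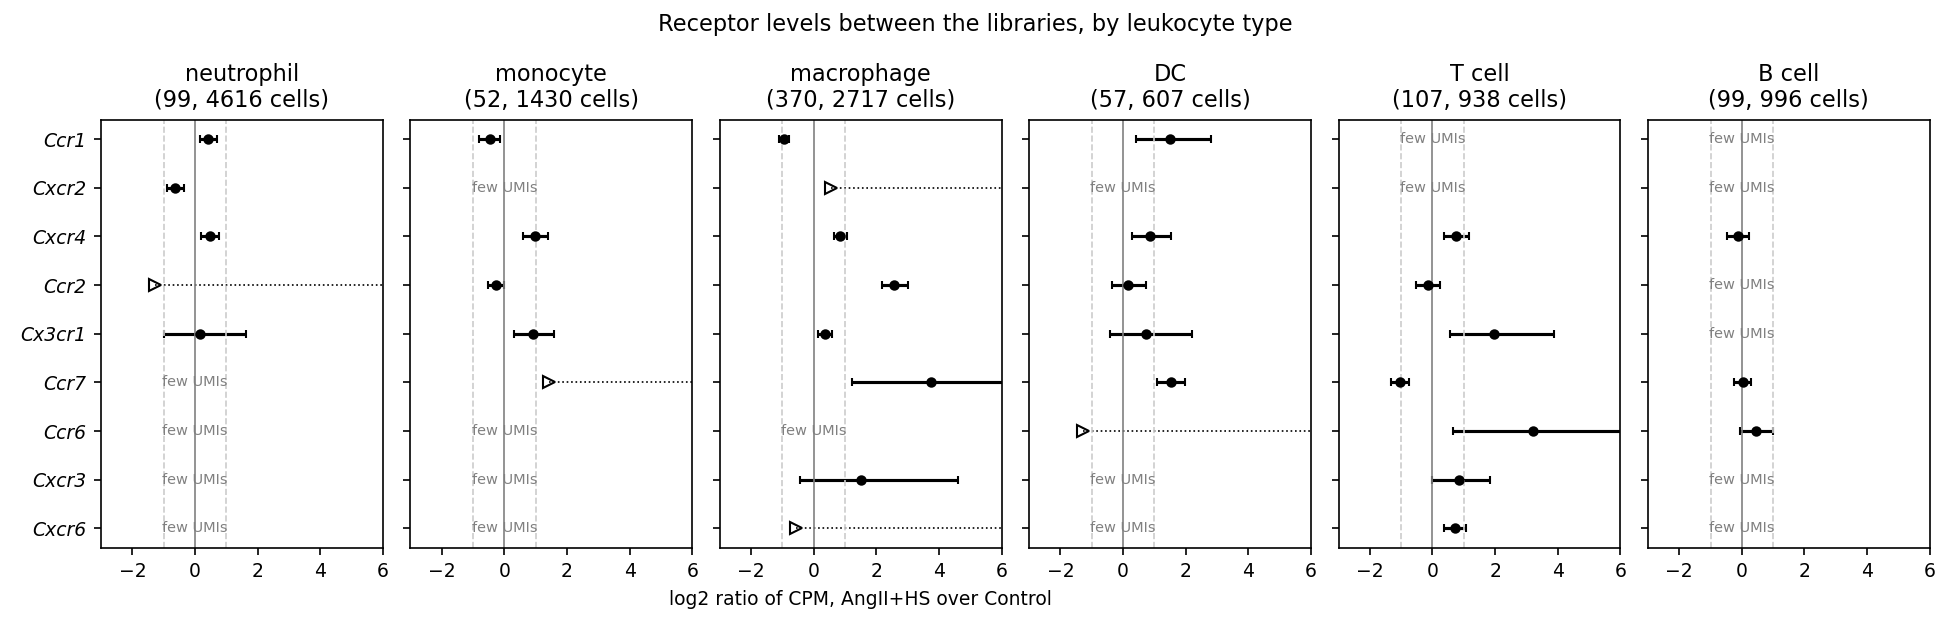
Log2 ratio of CPM, AngII+HS over Control, of each receptor in the 6 leukocyte types with at least 50 cells in both libraries (Control and AngII+HS cell numbers above each panel). Points are ratios with 95% exact conditional intervals, open triangles are lower bounds where Control had 0 UMIs, dashed lines mark 2-fold, and bars that reach the right edge go on beyond it. *Ccr7* lies above 0 in DCs (1.52) and below 0 in T cells (-1.04).

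The low levels in fibroblasts, vascular smooth muscle cells (VSMCs), vascular endothelial cells (VECs) and lymphatic endothelial cells (LECs), which are not known to use most of these receptors, differed between the libraries as well. In fibroblasts, from Control to AngII+HS, *Ccr1* went from 0.102 to 3.75 CPM, *Ccr2* from 0.102 to 2.37 CPM and *Cxcr4* from 0.814 to 6.76 CPM. In VECs *Cxcr4* went from 3.25 CPM (14 UMIs) to 19.8 CPM (127 UMIs), log2 2.604 (1.805 to 3.516). These levels lay above those of fibroblasts and VSMCs in the same library, and the part of free RNA in them was not tested. At least 2-fold higher in AngII+HS were 5 of 7 members tested in fibroblasts (7.98% of genes, and 8.12% lower), 5 of 6 in VSMCs (8.42%, and 8.76% lower) and 2 of 3 in VECs (8.45%, and 5.75% lower). In LECs the 1 member tested was neither higher nor lower, where 7.63% of genes were higher and 4.45% lower. Over the leukocyte types, 8 pairs of a member and a type were at least 2-fold higher and 1 was lower. Depending on the type, 11.0% to 17.3% of all genes were higher and 3.73% to 16.6% lower. After the CPM of fibroblasts and VSMCs of the same library was subtracted as an estimate of free RNA, log2 ratios were 2.56 for *Ccr2* in macrophages, 3.23 for *Ccr6* and -1.07 for *Ccr7* in T cells, and 1.52 for *Ccr7* in DCs. For *Cx3cr1* this subtraction is void, since its stromal levels lie above those of B cells, and nothing is drawn from it. How much of the remaining low levels (*Ccr7* in macrophages, *Cxcr3* outside T cells) is free RNA was not tested.

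*Cx3cr1* was also found in stromal cells. In Control its levels in VSMCs, VECs and neural cells were near that of macrophages, and those in LECs and fibroblasts were lower. In AngII+HS, VSMCs, VECs, LECs and fibroblasts all lay below macrophages. Control levels of *Cx3cr1* were 81.3 CPM (79.0 to 83.8) in VSMCs, 88.9 CPM (80.2 to 98.2) in VECs, 61.6 CPM (48.5 to 77.1) in LECs, 95.6 CPM (69.7 to 128) in neural cells and 37.8 CPM (34.1 to 41.9) in fibroblasts. Among Control types with at least 50 cells, the highest level, 178 CPM (155 to 203), was in an unnamed *Fgf14*-led cluster of 370 cells. C1q macrophages had too few Control cells to be compared. The other 8 members were at 4.05 CPM or less in VSMCs, VECs, LECs and fibroblasts of Control. VSMCs held 77.3% of the *Cx3cr1* UMIs of Control and leukocytes 3.62%, while in AngII+HS leukocytes held 54.9% and fibroblasts 28.3%. Between the libraries *Cx3cr1* was lower in AngII+HS VSMCs, at 31.7 CPM (27.8 to 36.1), log2 -1.36 (-1.56 to -1.17), where 8.76% of genes were lower, and in VECs at 54.6 CPM (49.0 to 60.6), log2 -0.70 (-0.92 to -0.49). In fibroblasts *Cx3cr1* was higher in AngII+HS, at 48.1 CPM (45.6 to 50.7), log2 0.35 (0.18 to 0.51). In LECs it was at 54.3 CPM (39.1 to 73.4), with an interval that held 0 (log2 -0.18, -0.76 to 0.38). B cells and plasma cells, at 6.83 and 4.98 CPM in AngII+HS, lay below every stromal type. So did NK cells (9.54 CPM), neutrophils (24.5 CPM) and T cells (30.2 CPM). The interval of T cells (23.7 to 37.9) overlapped that of VSMCs. Whether these UMIs are spliced *Cx3cr1* transcripts cannot be read from counts per gene.

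**Figure D5:**
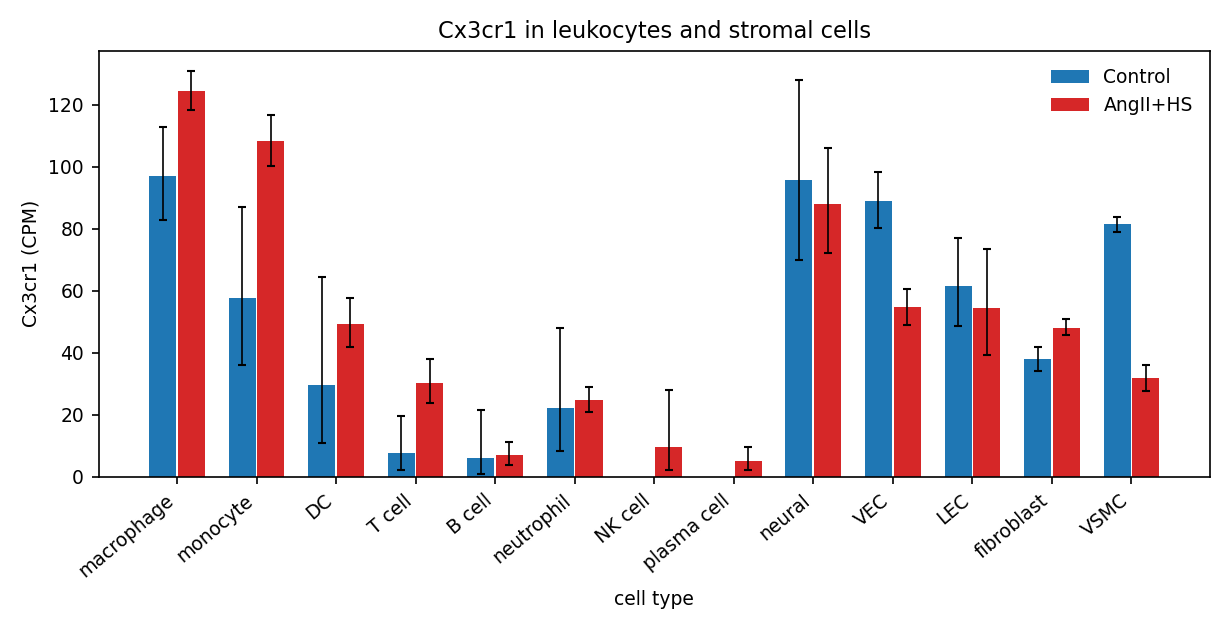
Level of *Cx3cr1* in CPM by cell type in the Control (blue) and AngII+HS (red) library, for types with at least 50 cells. Error bars are 95% Poisson intervals, and VSMCs (81.3 and 31.7 CPM) and VECs (88.9 and 54.6 CPM) lie near macrophages (97.0 CPM) in Control and below them (124 CPM) in AngII+HS.

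Across 16 AngII+HS subtypes, members resembled each other only in part. The highest Pearson r between 2 members, on log2(CPM + 1), was 0.641 for *Cxcr3* and *Cxcr6*, followed by 0.600 for *Ccr1* and *Cxcr2*. Of 9532 genes with at least 200 UMIs in leukocytes, the pattern of *Cxcr6* was most like that of *Rora* (r = 0.958), *Il18r1* (0.945) and *Farp1* (0.945). *Cxcr2* was nearest to *Csf1* (0.922), *Gm17619* (0.907) and *Entpd3* (0.90), and *Ccr1* to *Il1rn* (0.917), *Cd33* (0.916) and *Rnf149* (0.916). For *Ccr2* the nearest were *Ahnak* (0.90), *Lgals1* (0.886) and *Cd200r1* (0.857), for *Cx3cr1* they were *Dst* (0.929), *Itga9* (0.858) and *Gm15726* (0.858), and for *Ccr7* *Dpp4* (0.902), *Map3k1* (0.90) and *Kif21b* (0.882). Those of *Ccr6* were *Lclat1* (0.885), *Cep135* (0.885) and *Mif4gd* (0.864), those of *Cxcr4* *Xiap* (0.897), *Vps13d* (0.875) and *Nnat* (0.867), and those of *Cxcr3* *Nfatc2* (0.843), *Gna15* (0.804) and *Ndfip1* (0.776). The points are subtypes of 1 library that share its depth and free RNA, and the values describe likeness only.

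The ligands were measured in the same cells. Of each receptor's ligands, the one with the highest level in any AngII+HS type is given. *Cxcl2*, a ligand of CXCR2, was at 28975 CPM (28841 to 29110) in neutrophils, and *Ccl2*, the main ligand of CCR2, at 3682 CPM (3648 to 3716) in macrophages. *Ccl5*, a CCR1 ligand, was highest in NK cells at 4084 CPM (3864 to 4314), and *Ccl21a*, a CCR7 ligand, in LECs at 7790 CPM (7595 to 7989). *Cxcl12* was highest in fibroblasts at 788 CPM (778 to 799), *Cxcl16* in DCs at 445 CPM (422 to 469), *Cxcl10*, a CXCR3 ligand, in neural cells at 973 CPM (919 to 1030), and *Cx3cl1* in VECs at 67.2 CPM (61.0 to 73.8). *Ccl20*, the ligand of CCR6, had 6 UMIs in T cells, its highest type (2.45 CPM, 0.898 to 5.33).

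The list of ligands held 21 genes. At least 2-fold higher were 12 of 19 tested in neutrophils, 14 of 17 in monocytes, 6 of 20 in macrophages, 3 of 15 in DCs (with 1 lower), 13 of 14 in T cells and 13 of 13 in B cells, where in that order 17.3%, 11.6%, 14.1%, 13.1%, 11.2% and 11.0% of all genes were higher. In stromal types it was 13 of 21 in fibroblasts, 16 of 19 in VSMCs and 15 of 19 in VECs, where 7.98%, 8.42% and 8.45% of all genes were higher. The part of free RNA in these counts was not tested. Of 10 other chemokine receptor genes, 1 of 6 tested in macrophages was higher and 2 lower (14.1% and 16.6% of genes), and in T cells 2 of 6 were higher and 1 lower (11.2% and 3.73%). Of the 4 atypical receptors, which take up chemokines without G protein signalling, 3 of 4 tested in fibroblasts were lower, where 8.12% of genes were, while 1 of 3 was higher and 1 lower in VECs and in LECs, and the 1 tested in macrophages was higher. Of 12 signalling genes downstream (G proteins, arrestins, receptor kinases and the like), 2 were higher and 2 lower of 12 tested in neutrophils, 2 higher and 3 lower of 12 in monocytes, 1 higher and 0 lower of 12 in macrophages, 0 higher and 2 lower of 12 in DCs, 0 of 11 in T cells either way, and 1 higher and 0 lower of 11 in B cells. Of all genes, 10.4%, 10.1%, 16.6%, 14.7%, 3.73% and 4.24% were lower in these types, in that order, and the shares that were higher are those given for the ligands. In stromal types, 4 of 12 were higher in fibroblasts (1 lower), 4 of 11 in VSMCs and 6 of 12 in VECs (0 lower in both). There 8.12%, 8.76% and 5.75% of all genes were lower.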

How the data were processed

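Single-cell RNA sequencing (3′ chemistry) of 1 Control and 1 AngII+HS library was analysed from the deposited matrices. Per the file headers, the authors made the UMI counts per gene and barcode with Cell Ranger 8.0.1, and no normalization was applied to them. The methods name GRCm39 as the genome and the labels another mouse build, so coordinates were taken from GENCODE on GRCm39 by gene ID. Levels are not compared between genes, since 3′ counts carry no length.

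Barcodes passed a filter of 500 UMIs, 200 detected genes and a mitochondrial share below 20% (11288 of 11448 barcodes in Control, 24560 of 24804 in AngII+HS). As doublets, 1019 and 4826 cells with the highest Scrublet scores (run through scanpy 1.11.5) were taken out, a rate of 0.8% per 1000 cells. Median UMIs per barcode were 7487 and 3506. Libraries were integrated with Seurat 5.3.0 in R 4.3.3 on 2000 variable genes without the 9 receptors, with 30 components and resolution 0.8. Neutrophils, mononuclear phagocytes and T and NK cells were clustered again with 20 components (resolution 0.8, neutrophils 0.4). Clusters were named from fixed marker lists with at least 3 detected markers. The naming thresholds were settled after a first clustering had been seen, and the members and lists were chosen with earlier results of these data known.

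UMIs were summed per type in Python 3.11.15, with intervals from scipy 1.17.1. Totals and shares of a receptor's UMIs are over the cells kept after filtering and doublet removal and given a type. Some clusters of the lineages clustered again were given no type and left out. Among them was an unnamed *Lars2*-led cluster of 64 Control and 257 AngII+HS cells, with 2 and 90 *Ccr2* UMIs. Types with at least 50 cells were compared. A receptor was called at a ratio of at least 2 with at least 20 UMIs, whatever its interval, and the same rule over all genes gives the background percentages. No p-value was computed, since each condition is 1 library. The ratio calculation was tested on simulated data. Named are the 9 receptors, the 3 genes nearest to each in pattern, and the most abundant ligand of each. Leading genes of clusters and *Fyco1* were named after their values were seen. Alternatives changed doublet removal, cell filter, integration, resolution, scaling (edgeR 4.0.16 factors), weight of cells, depth, free RNA and UMI minimum. UMIs per cell and ratios within single clusters were added after seeing the data.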

Additional observations from a re-analysis of the deposited data

Results flagged for a closer look

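*Ccr7* differed between the libraries in opposite directions in different leukocyte types. Its log2 ratio, AngII+HS over Control, was 1.52 in DCs, 3.729 in macrophages (from 1 Control UMI) and -1.044 in T cells. In monocytes, with 0 Control UMIs, it was 1.737 with 3 UMIs put in for Control, and its interval began at 1.42. With 1 library per condition, the difference between these types was not tested. The mature DC cluster held 62 cells of AngII+HS and none of Control, where there were 57 DCs in all. Whether the Control cDC2s include mature DCs was not tested. The T cells of the libraries differed in their shares of the clusters.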

How the results depend on the processing

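No paired analysis was possible because each condition is 1 library, and for the same reason no replicate could be left out. The number of receptors at least 2-fold above the next type was 5 (5 to 7 over the alternatives), and above the next subtype 4 (3 to 5). Between the libraries, 8 pairs of receptor and type were higher (6 to 12) and 1 was lower, the latter 2 when the libraries were merged without integration, at 1.5 times the lineage resolution and at a UMI minimum of 5, and 0 after thinning to 1000 UMIs. By subtype, 7 pairs were higher and 1 lower, against 4 and 0 with no doublets removed and 1 and 0 after merging without integration. Of all genes, 11.0% to 17.3% were higher and 3.73% to 16.6% lower by type. By subtype it was 8.12% to 17.3% and 3.44% to 17.1%. The ratio of *Cxcr3* in macrophages turned to log2 -0.66 within the *Oasl1*-led cluster. Scaling by TMM shifted the receptor ratios between the libraries by a median of 0.144 (log2) in DCs, -0.131 in neutrophils and 0.104 in macrophages. Relative log expression shifted them by 0.118 in DCs and -0.146 in neutrophils. The cause of these changes was not tested. Depth limits *Cxcr3* and *Ccr6* most, with 14 and 40 UMIs in all Control cells counted.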
